A study of Homo sapiens with 6 samples.

Results

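Aminoacyl-tRNA synthetases join each amino acid to its tRNA, the step that sets which amino acid a codon is read as. For most amino acids, human cells carry separate nuclear genes for the cytosolic enzyme and for the one imported into mitochondria. The imported enzymes charge the tRNAs that read the mitochondrial genome. GARS and KARS each give rise to both a cytosolic and a mitochondrial enzyme, so glycine and lysine have no mitochondrial gene of their own. The genes described here were taken by symbol from a list of 36 synthetase genes. All 36 were among the 23228 gene symbols of the count table, and all 36 passed the filter on low counts. They were divided by symbol into 20 cytosolic genes and 16 mitochondrial genes, whose symbols end in 2.

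U2OS, the human osteosarcoma cell line used throughout, supplied the RNA. Cells were transfected with siRNA against ALKBH5 (3 libraries) or with a scrambled siRNA as control (3 libraries), and were harvested after 48 hours in both groups. ALKBH5 is a demethylase that removes N6-methyladenosine from RNA, and the comparison asks how transcripts differ when its own message is reduced. The labels speak of ALKBH5 siRNAs without saying how many there were or whether they were pooled. No rescue was analysed here, so loss of ALKBH5 and other effects of the siRNAs cannot be told apart.

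Each knockdown library held 19748583 to 19919797 reads assigned to genes, and each scrambled library 18817181 to 23410007. Single synthetase genes held between 104 and 14428 reads in a library. ALKBH5 itself had 19.4, 16.2 and 15.7 CPM (reads of a gene scaled to the size of its library) in the knockdown libraries, against 138, 148 and 143 CPM in the scrambled libraries, a log2 fold change of −3.06 (SE 0.10, adjusted p = 1.6e-09). An exact permutation test of these values gave p = 0.1, the smallest that 3 libraries against 3 allow. Reads in the no-feature entry were 17.3% to 18.6% in the knockdown and 15.0% to 15.5% in the scrambled libraries, of those in genes, in no feature or ambiguous; their part in the results was not tested. Of 8 osteoblast and mesenchymal markers, SP7 and BGLAP stayed under 1 CPM in every library. The summed level of the list was 4564 to 5342 CPM in knockdown and 5383 to 5610 CPM in scrambled libraries. Its genes went both ways. At an adjusted p under 0.05 RUNX2 and COL1A1 were higher in knockdown, SPARC, VIM and ALPL were lower and COL1A2 was not called. Over all tested genes 30.8% were higher and 30.8% lower. LCP1, an actin-bundling protein gene used as a leukocyte marker, held 88.7, 125 and 190 CPM in the knockdown libraries, against 16.1, 19.1 and 19.6 CPM in the scrambled libraries. The leukocyte markers CORO1A and PTPRC were lower on average in the knockdown libraries. CORO1A held 5.20 ± 0.556 CPM in knockdown against 7.25 ± 1.29 CPM in scrambled libraries (SD, n = 3 each). PTPRC held 0.619 ± 0.262 CPM in knockdown against 1.31 ± 0.390 CPM in scrambled libraries (SD, n = 3 each). The groups overlapped for PTPRC, which had 9 to 31 reads a library. Of 7 epithelial markers KRT19 stayed under 1 CPM, and the list summed to 626 to 649 CPM in knockdown and 538 to 635 CPM in scrambled libraries. Of 5 endothelial markers PECAM1 stayed under 1 CPM, and the list summed to 2.36 to 3.58 CPM in knockdown and 6.85 to 9.61 CPM in scrambled libraries; the part of these genes and lists in the results was not tested. In bulk RNA, fewer cells of a type and less RNA per cell cannot be told apart.

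Several cytosolic synthetase genes are known targets of ATF4, the transcription factor of the amino acid response, which binds composite elements together with C/EBP-family partners. Promoters of 300 bases, 250 before and 50 after the annotated start, were found in RefSeq (GRCh38.p14) for 30 of the 36 genes, 16 cytosolic and 14 mitochondrial. DARS, LARS, VARS, YARS, AARS2 and VARS2 had no entry. The motif searched was TGATGNAA on either strand. It was present in 6 of the 16 cytosolic promoters, in 1 of the 14 mitochondrial promoters, and in 3.67% of all 27305 promoters of this length. The matches are shown because the genes that carry them did not move together; capitals mark the match, which reads as its reverse complement where it lies on the other strand, and each sequence is 5′ to 3′ on the gene's strand.
AARS, chr16:70289675-70289704, minus strand: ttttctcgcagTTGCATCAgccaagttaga
CARS, chr11:3057407-3057436, minus strand: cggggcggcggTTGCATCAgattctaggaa
IARS, chr9:92293692-92293721, minus strand: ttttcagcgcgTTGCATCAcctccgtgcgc
MARS, chr12:57488053-57488082, plus strand: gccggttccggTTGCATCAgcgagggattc
NARS, chr18:57621804-57621833, minus strand: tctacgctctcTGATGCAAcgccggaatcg
TARS, chr5:33440956-33440985, plus strand: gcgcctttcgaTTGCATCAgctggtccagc
YARS2, chr12:32756076-32756105, minus strand: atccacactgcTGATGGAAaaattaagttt

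In the knockdown libraries synthetase transcripts were more often lower than higher. Of the 36 genes, 19 fell, 5 rose and 12 were not called (edgeR's quasi-likelihood test, Benjamini-Hochberg adjusted p under 0.05 over all 14504 tested genes). Across all tested genes 61.6% were called, 30.8% lower and 30.8% higher, so the number of synthetases called was near the background and their lean was toward lower. The median log2 fold change was −0.26 over the 36 genes and 0.01 over all tested genes. The members spanned log2 fold changes of −1.65 to 0.46. In 26 of the 36 genes every knockdown library lay on 1 side of every scrambled library, which held for 67.4% of all tested genes, 33.9% with the knockdown lower and 33.5% with it higher. The plot of fold changes shows all 36 genes with their intervals.

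**Figure D1:**
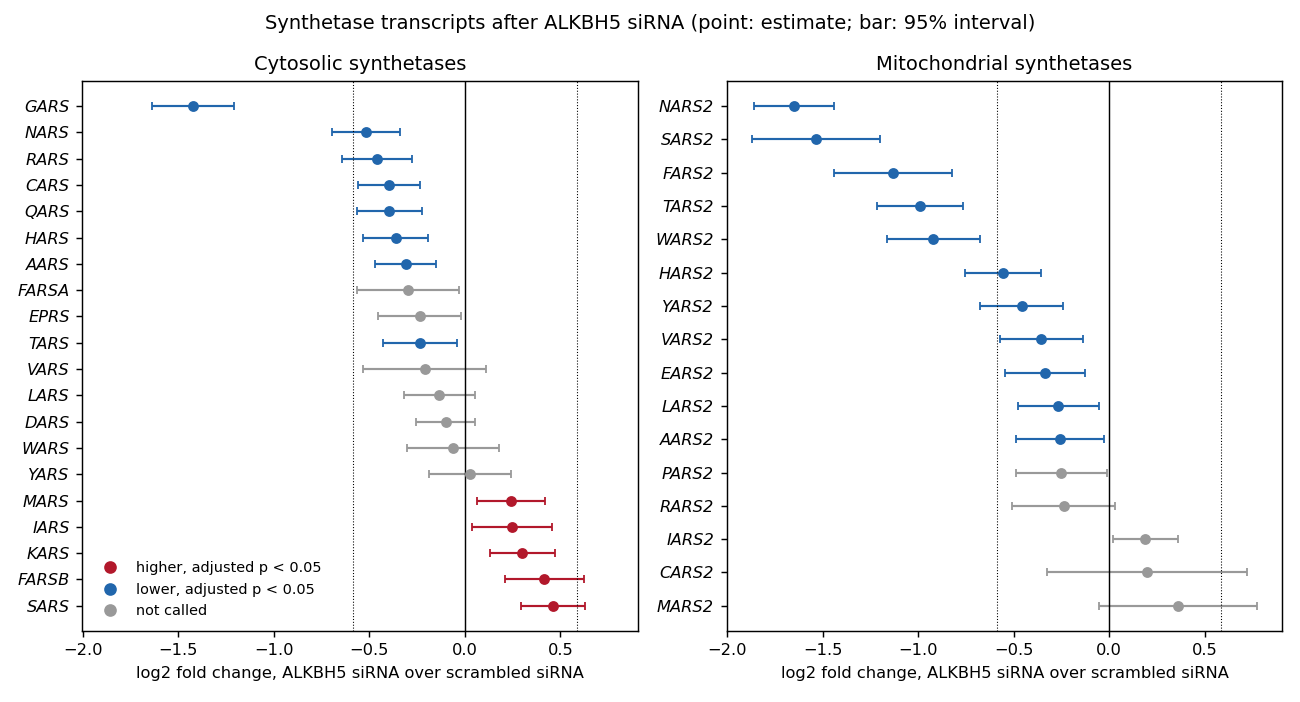
Log2 fold change of each synthetase gene, ALKBH5 siRNA over scrambled siRNA, with 95% intervals that are not adjusted for the number of genes; cytosolic genes on the left, mitochondrial genes on the right, and dotted lines at a change of 1.5-fold. GARS stands apart among the cytosolic genes at −1.42, and NARS2, SARS2, FARS2, TARS2 and WARS2 lie below −0.9 among the mitochondrial genes.

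Mitochondrial synthetases fell in 11 of 16 cases and rose in 0, against 30.8% of all tested genes lower and 30.8% higher. At an unadjusted p under 0.05 edgeR's test had 1 higher gene, IARS2. DESeq2, at an adjusted p under 0.05, called 10 lower and 0 higher. The median log2 fold change of the 16 genes was −0.35. Cytosolic synthetases went both ways, with 8 of 20 lower, 5 higher and 7 not called, and a median of −0.22. The difference between the 2 sets was not tested as such. Leaving out knockdown replicate 1 or scrambled replicate 3 gave 2 higher mitochondrial genes, IARS2 (adjusted p = 0.036 and 0.028) and MARS2 (0.028 and 0.027), in place of 0. Leaving out knockdown replicate 2 or scrambled replicate 1 gave 3 higher cytosolic genes in place of 5. The cytosolic median was −0.14 without knockdown replicate 1.

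As a share of all reads in genes, the 16 mitochondrial genes together held 0.0539%, 0.0557% and 0.0586% in the knockdown libraries, against 0.0717%, 0.0730% and 0.0766% in the scrambled libraries. The 20 cytosolic genes held 0.466%, 0.519% and 0.498% in the knockdown libraries, against 0.538%, 0.589% and 0.595% in the scrambled libraries. Neither set's shares overlapped between the groups. Without GARS the cytosolic share was 0.442% to 0.494% in the knockdown libraries and 0.480% to 0.526% in the scrambled libraries, and the groups then overlapped.

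Called changes of 1.5-fold or more were found in 6 synthetase genes, all lower, of which 5 were mitochondrial. Among all tested genes 38.4% were called and changed by at least this much, 18.7% lower and 19.7% higher. GARS charges glycine, and was the cytosolic gene of this group. It held 237, 264 and 219 CPM in the knockdown libraries, against 566, 693 and 673 CPM in the scrambled libraries. Every knockdown library was below every scrambled library. The decrease was 2.68-fold, a log2 fold change of −1.42 with an SE of 0.10 (adjusted p = 1.9e-07). GARS, TARS2 and WARS2 each have 1 named pseudogene in GENCODE 29, which makes their counts less certain.

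NARS2, the mitochondrial asparaginyl enzyme, had the largest decrease of the 36 genes. Its level was 16.3, 16.3 and 16.5 CPM in the knockdown libraries, against 51.7, 48.6 and 53.7 CPM in the scrambled libraries (log2 fold change −1.65, SE 0.10, adjusted p = 4.9e-08). The groups lay far apart, and the knockdown libraries were nearly equal to each other. SARS2, which charges mitochondrial serine tRNAs, held 13.3, 9.36 and 13.2 CPM in the knockdown libraries, against 32.8, 30.7 and 40.5 CPM in the scrambled libraries (log2 fold change −1.54, SE 0.15, adjusted p = 4.5e-06). Its levels varied more among libraries of a group than those of NARS2, but the groups did not overlap. In GENCODE 29 SARS2 overlaps MRPS12 on the other strand and AC011455.2, for which no level was analysed here, on the same strand, so its counts are uncertain.

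FARS2, the single-chain phenylalanyl enzyme of mitochondria, was the least abundant of these genes, with 104 to 117 reads in the knockdown libraries. It stood at 5.32, 5.79 and 5.99 CPM in the knockdown libraries, against 12.8, 11.3 and 13.4 CPM in the scrambled libraries (log2 fold change −1.13, SE 0.14, adjusted p = 2.5e-05). TARS2, for threonine, held 23.2, 23.8 and 25.3 CPM in the knockdown libraries, against 46.4, 44.0 and 53.2 CPM in the scrambled libraries (log2 fold change −0.99, SE 0.10, adjusted p = 5.5e-06). WARS2, for tryptophan, held 11.7, 13.0 and 12.3 CPM in the knockdown libraries, against 22.0, 25.3 and 22.9 CPM in the scrambled libraries (log2 fold change −0.92, SE 0.11, adjusted p = 2.0e-05). In all 3 genes the groups were separate. The plot of levels by library shows the same separation for all 6 genes.

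**Figure D2:**
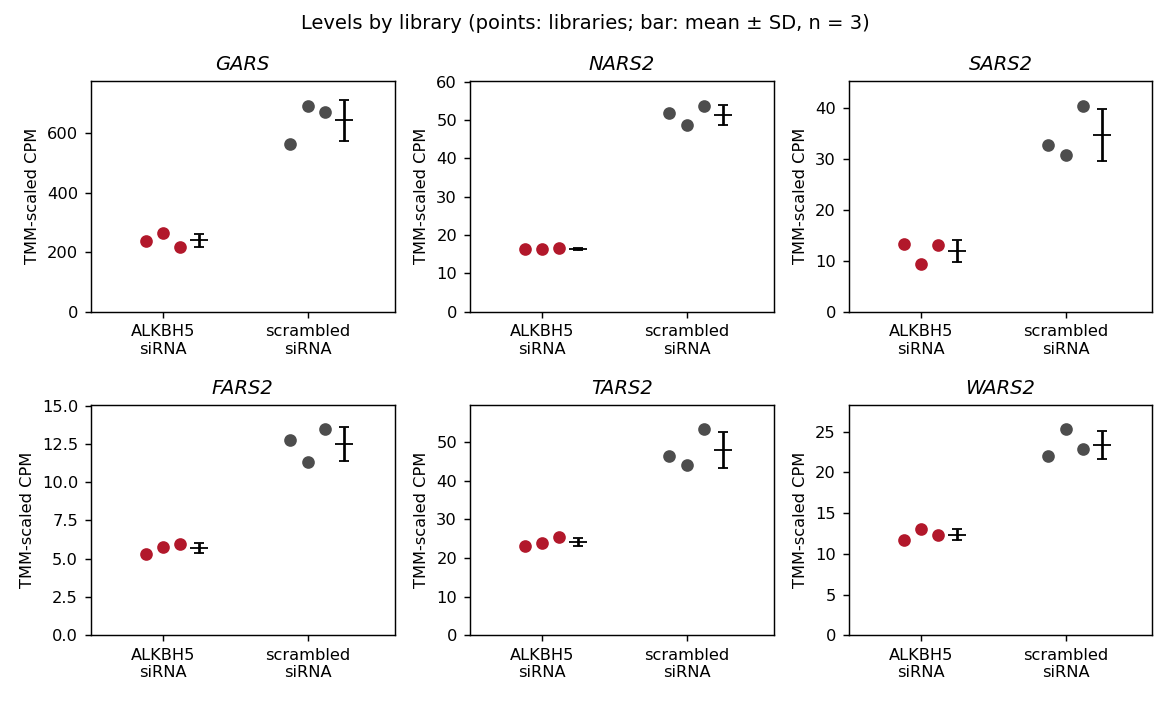
TMM-scaled CPM of the 6 synthetase genes that were called and changed by 1.5-fold or more, with ALKBH5 siRNA on the left and scrambled siRNA on the right of each panel; points are libraries and bars are mean ± SD (n = 3). In each panel the highest knockdown library lies below the lowest scrambled library, as for GARS at 264 against 566 CPM.

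The other called mitochondrial genes fell by less. HARS2 (histidine) had a log2 fold change of −0.56, YARS2 (tyrosine) of −0.46, VARS2 (valine) of −0.36 and EARS2 (glutamate) of −0.34. In GENCODE 29, HARS2 overlaps ZMAT2 and VARS2 overlaps GTF2H4 on the same strand, so their counts are uncertain. Both of these neighbours fell too, ZMAT2 to 23.1 CPM in knockdown against 84.4 CPM in scrambled libraries (log2 fold change −1.87, adjusted p = 2.1e-08) and GTF2H4 to 33.5 CPM in knockdown against 45.9 CPM in scrambled libraries (log2 fold change −0.45, adjusted p = 0.0026). Their part in the values of HARS2 and VARS2 was not tested. HARS and HARS2 overlap each other at their starts, on opposite strands. HARS also overlaps WDR55 on the other strand, a gene that fell (log2 fold change −0.63, adjusted p = 0.00037), and its part in the value of HARS was not tested. LARS2 (leucine) and AARS2 (alanine) stood at −0.27 and −0.26, close to the threshold (adjusted p = 0.032 and 0.0496). The call of LARS2 was lost without knockdown replicate 1 (adjusted p = 0.147), scrambled replicate 1 (0.071) or scrambled replicate 2 (0.096). That of AARS2 was lost without knockdown replicate 1 (0.189) or 2 (0.107) or scrambled replicate 1 (0.073), 2 (0.108) or 3 (0.123), with RLE scaling (0.0505) and with DESeq2 (0.059). AARS2 also overlaps TMEM151B, YARS2 overlaps DNM1L and EARS2 overlaps UBFD1, each on the other strand. TMEM151B rose, with 4.27 CPM in knockdown against 0.691 CPM in scrambled libraries (log2 fold change 2.60, adjusted p = 9.9e-06). DNM1L held 115 CPM in knockdown and 120 CPM in scrambled libraries and was not called. UBFD1 fell, with values given below. The part of these genes in the values of AARS2, YARS2 and EARS2 was not tested. Without a stated strand setting, reads at such overlaps cannot be separated.

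Among the 5 mitochondrial genes that were not called, IARS2 (isoleucine), the most abundant mitochondrial member, had a log2 fold change of 0.19 (95% interval 0.02 to 0.36, adjusted p = 0.051). MARS2 (methionine) was at 0.36 (−0.05 to 0.78) and CARS2 (cysteine) at 0.20 (−0.33 to 0.72). PARS2 (proline) was at −0.25 (−0.49 to −0.01) and RARS2 (arginine) at −0.24 (−0.51 to 0.03). These intervals are not adjusted for the number of genes. RARS2 was called lower without scrambled replicate 3 (adjusted p = 0.016).

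Cytosolic synthetases other than GARS changed by less than 1.5-fold. The 7 called decreases spanned log2 fold changes of −0.52 to −0.23. NARS, for asparagine, held 180, 214 and 188 CPM in the knockdown libraries, against 266, 287 and 282 CPM in the scrambled libraries, with no overlap (log2 fold change −0.52). RARS, for arginine, averaged 106 ± 9.88 CPM in knockdown and 145 ± 3.89 CPM in scrambled libraries (SD, n = 3 each; log2 fold change −0.46). CARS (cysteine) and QARS (glutamine) both had a log2 fold change of −0.40, HARS (histidine) of −0.36 and AARS (alanine) of −0.31. TARS (threonine) held 324, 392 and 347 CPM in the knockdown libraries, against 382, 427 and 443 CPM in the scrambled libraries. The groups overlapped, and TARS, at −0.23, lost its call without knockdown replicate 1 (adjusted p = 0.142) or 3 (0.088) and without scrambled replicate 2 (0.091) or 3 (0.104).

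Of the 5 cytosolic genes that rose, SARS (serine) changed most. It held 441, 498 and 494 CPM in the knockdown libraries, against 334, 347 and 360 CPM in the scrambled libraries (log2 fold change 0.46, SE 0.08, adjusted p = 0.00023). The lowest knockdown library was above the highest scrambled library. KARS (lysine) had a log2 fold change of 0.30, IARS (isoleucine) of 0.25 and MARS (methionine) of 0.24. The groups overlapped for IARS, and its call was lost without knockdown replicate 2 (adjusted p = 0.157) or 3 (0.063) or scrambled replicate 1 (0.166) or 2 (0.079). The call of MARS was lost without knockdown replicate 2 (0.062) or scrambled replicate 1 (0.103). The MARS locus overlaps DDIT3 on the other strand, and without a stated strand setting their reads cannot be separated at the overlap. DDIT3 rose too, with 37.1 CPM in knockdown against 25.8 CPM in scrambled libraries (log2 fold change 0.52, adjusted p = 0.0017). Its part in the value of MARS was not tested.

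FARSB encodes the beta subunit of the cytosolic phenylalanyl enzyme, and FARSA its alpha subunit. FARSB rose, with 91.0, 110 and 93.4 CPM in the knockdown libraries, against 73.2, 69.5 and 78.3 CPM in the scrambled libraries (log2 fold change 0.42, SE 0.09, adjusted p = 0.0022). FARSA held 31.6, 40.4 and 40.7 CPM in the knockdown libraries, against 41.3, 45.6 and 51.7 CPM in the scrambled libraries, and just missed the threshold (log2 fold change −0.30, SE 0.12, adjusted p = 0.0503). FARSA was called lower without knockdown replicate 3 (adjusted p = 0.037) or scrambled replicate 1 (0.032), with DESeq2 (0.049) and with no filter on low counts (0.038). The 2 subunits therefore stood on opposite sides of 0. The ratio of FARSA to FARSB reads was 0.347, 0.366 and 0.436 in the knockdown libraries, against 0.565, 0.657 and 0.661 in the scrambled libraries. This ratio was chosen after its values were seen, and an exact 2-sided permutation test gave p = 0.1, the smallest possible.

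The remaining cytosolic genes were not called. WARS, for tryptophan, also known as an interferon-induced gene, held 109, 141 and 125 CPM in the knockdown libraries, against 113, 141 and 138 CPM in the scrambled libraries. The groups overlapped, and the log2 fold change was −0.06 (95% interval −0.31 to 0.18). YARS (tyrosine) was at 0.03 (−0.19 to 0.24), DARS (aspartate) at −0.10 (−0.26 to 0.05) and LARS (leucine) at −0.14 (−0.32 to 0.05). VARS (valine), at −0.21 (−0.53 to 0.11), was called lower without knockdown replicate 3 (adjusted p = 0.030). EPRS, a fused enzyme for glutamate and proline, was at −0.24 (−0.45 to −0.02), and was called lower without knockdown replicate 2 (adjusted p = 0.0092) or scrambled replicate 1 (0.024) and with no filter on low counts (0.037).

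Cytosolic and mitochondrial genes for the same amino acid were then compared within each library as a ratio of reads, which needs no scaling factor. There were 16 such pairs, with EPRS used for both EARS2 and PARS2. In 7 pairs the ratio did not overlap between the groups, and in all 7 the ratio of cytosolic to mitochondrial reads was higher in the knockdown libraries. The share of other gene pairs whose ratios do not overlap was not computed, and levels of single genes did not overlap in 67.4% of all tested genes, so the count of 7 is a description of these pairs. SARS reads were 33.1, 53.2 and 37.5 times SARS2 reads in the knockdown libraries, against 10.2, 11.3 and 8.89 times in the scrambled libraries. This was the widest shift, 2.01 on the log2 scale, and its partners moved in opposite directions.

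NARS reads were 11.1, 13.2 and 11.4 times NARS2 reads in the knockdown libraries, against 5.15, 5.90 and 5.24 times in the scrambled libraries, although both genes fell. WARS to WARS2 shifted by 0.86, FARSA to FARS2 by 0.83, TARS to TARS2 by 0.75, YARS to YARS2 by 0.49 and HARS to HARS2, whose overlap with ZMAT2 is given above, by 0.19 on the log2 scale. In the other 9 pairs the ratios overlapped. Exact 2-sided permutation tests gave p = 0.1 at the least and 0.229 after adjustment over the 16 pairs, and 3 libraries against 3 cannot reach the threshold. The plot of read ratios shows each library.

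**Figure D3:**
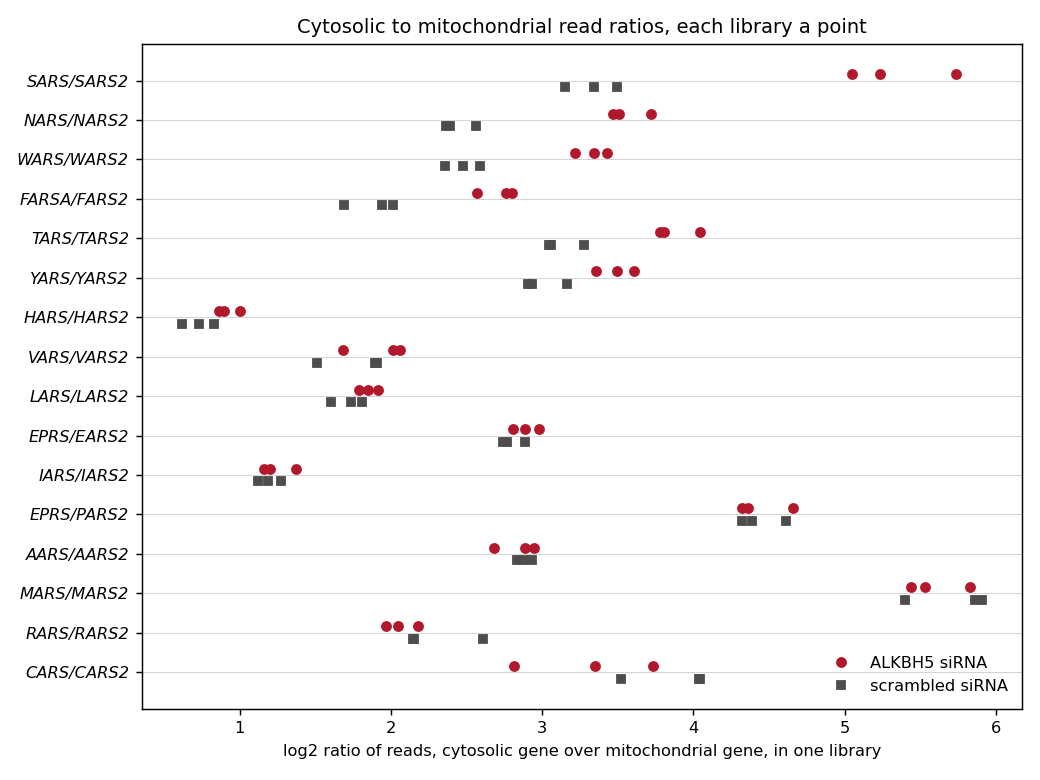
Log2 ratio of reads of the cytosolic over the mitochondrial gene for each of 16 pairs, with ALKBH5 siRNA as circles above scrambled siRNA as squares in each row; each point is a library, and rows are ordered by the difference between the groups. The 7 upper rows, from SARS/SARS2 with a shift of 2.01 to HARS/HARS2 with 0.19, have no overlap between the groups.

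Levels were compared between genes as RPKM, the CPM divided by transcript length in kilobases, with lengths from GENCODE 29. Cytosolic genes were the more abundant set in both groups, with a median of 66.5 RPKM in knockdown and 80.1 RPKM in scrambled libraries, while the mitochondrial median was 9.39 RPKM in knockdown and 16.1 RPKM in scrambled libraries. GARS averaged 91.1 ± 8.60 RPKM in knockdown libraries, where it was 8th of the 36 genes, and 244 ± 26.0 RPKM in scrambled libraries, where it was 1st. SARS averaged 254 ± 17.0 RPKM in knockdown libraries, as the 1st, and 184 ± 6.99 RPKM in scrambled libraries, as the 3rd, next to MARS at 186 ± 13.3 RPKM. SARS and MARS differed there by less than their spread. IARS2 led the mitochondrial genes at 54.4 ± 2.64 RPKM in knockdown and 47.7 ± 3.11 RPKM in scrambled libraries. The plot of levels per length shows that the lowest cytosolic genes lay below the highest mitochondrial ones.

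**Figure D4:**
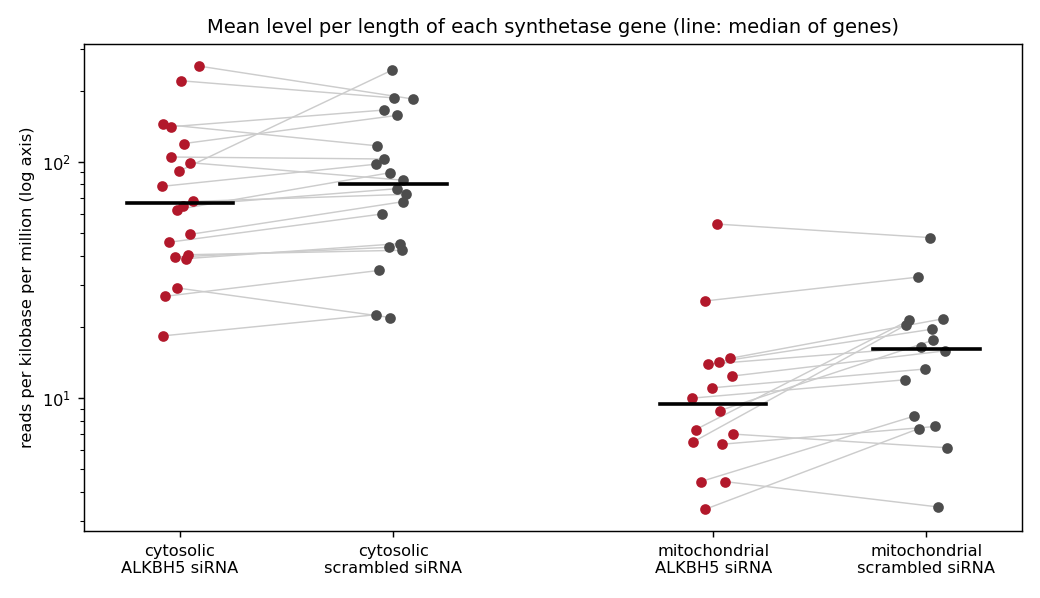
Mean RPKM of each synthetase gene on a log axis, with ALKBH5 siRNA left of scrambled siRNA for the 20 cytosolic and the 16 mitochondrial genes; grey lines join a gene's values and black bars are medians over genes. The mitochondrial median is 9.39 RPKM in knockdown and 16.1 RPKM in scrambled libraries, and the steepest cytosolic line is GARS.

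The multisynthetase complex is a particle of cytosolic synthetases, which holds EPRS, IARS, LARS, MARS, QARS, RARS, KARS and DARS on a scaffold of AIMP1, AIMP2 and EEF1E1. Of these 8 enzymes 2 fell, 3 rose and 3 were not called, with a median log2 fold change of −0.12. Of the 12 cytosolic genes outside it 6 fell, 2 rose and 4 were not called, with a median of −0.27. Over all tested genes 30.8% fell and 30.8% rose, and the difference between enzymes inside and outside the complex was not tested. The scaffold gene AIMP2 averaged 112 ± 9.13 CPM in knockdown and 138 ± 13.9 CPM in scrambled libraries (log2 fold change −0.30, adjusted p = 0.015). Its call was lost without knockdown replicate 1 (adjusted p = 0.063) or scrambled replicate 3 (0.060). AIMP1, at 0.07, and EEF1E1, at −0.10, were not called.

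Synthetases have 2 unrelated catalytic folds, called class I and class II, and EPRS carries both. Of 19 class I members 8 fell and 2 rose, with a median log2 fold change of −0.24, and of 18 class II members 11 fell and 3 rose, with a median of −0.30. Over all tested genes 30.8% fell and 30.8% rose. Differences between the classes, and between the ATF4 sets that follow, were not tested. Of the 6 genes called and changed by 1.5-fold or more, WARS2 belongs to class I and the other 5 to class II. Of 13 cytosolic genes linked to ATF4 in other work, 5 fell, 3 rose and 5 were not called (median −0.21). Of the other 7 cytosolic genes 3 fell, 2 rose and 2 were not called (median −0.30). Among genes with the promoter motif printed above, AARS, CARS, NARS, TARS and YARS2 fell, whereas IARS and MARS rose.

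A further motif, the element of the nuclear respiratory factor NRF1, was searched on both strands as GCGC and TGCGC with any base between them. It was found in 3 of the 14 mitochondrial and 3 of the 16 cytosolic promoters, and in 6.28% of all promoters. FARSB, SARS, IARS2 and MARS2 are shown because their log2 fold changes were above 0, although those of IARS2 and MARS2 were not called; the other carriers, PARS2 and TARS, were below 0. The genes shown were chosen after their values were seen. Capitals mark the match, on either strand. TARS held both motifs, at separate places, and MARS2 had a further match, not printed.
FARSB, chr2:222656081-222656110, minus strand: tcagctcgctGCGCAGGCGCagtgagttcg
SARS, chr1:109213873-109213902, plus strand: ggctccagctGCGCCTGCGCaggaagggcg
IARS2, chr1:220094106-220094135, plus strand: cgctcccggaGCGCGTGCGCcctcttactc
MARS2, chr2:197705332-197705361, plus strand: cgacccggctGCGCATGCGCctctcacacg

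Genes that work with the synthetases were counted in the same way, to be read against the 30.8% of all tested genes that fell and the 30.8% that rose; their difference from the synthetases was not tested. Of 12 genes that edit, modify, charge or carry tRNA, 4 fell and 3 rose, with a median log2 fold change of 0.03. The list holds TARSL2, a threonyl-tRNA synthetase gene that was not among the 36 and was not called here. XPOT, the export receptor that carries tRNA out of the nucleus, averaged 182 ± 17.7 CPM in knockdown and 70.0 ± 7.63 CPM in scrambled libraries (log2 fold change 1.38, SE 0.10, adjusted p = 2.8e-07). MTFMT, which formylates the methionine on the mitochondrial initiator tRNA, averaged 6.38 ± 1.04 CPM in knockdown and 18.7 ± 1.62 CPM in scrambled libraries (log2 fold change −1.55, SE 0.15, adjusted p = 2.5e-06). C14orf126, which encodes a D-aminoacyl-tRNA deacylase, rose by 1.30 on that scale.

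Of 6 cytosolic elongation genes 2 fell and 3 rose. EEF1B2, an exchange factor of the carrier of charged tRNA, had a log2 fold change of 0.50, and EEF2 and EIF5A of −0.39 and −0.43. Counts of these families are uncertain because pseudogenes share their sequence. Of 10 genes of mitochondrial translation factors 2 fell and 2 rose. TUFM, which carries charged tRNA to the mitochondrial ribosome, averaged 119 ± 1.47 CPM in knockdown and 173 ± 10.9 CPM in scrambled libraries (log2 fold change −0.54). MTIF3, an initiation factor, was at −0.39, and MTRF1L, a release factor, rose by 0.80. Of 11 mitochondrial tRNA processing genes 3 fell and 4 rose. KIAA0391, the protein subunit that cuts tRNA 5′ ends, fell by 1.15 and ELAC2, which cuts 3′ ends, fell by 0.44, while HSD17B10, another subunit of the enzyme that cuts 5′ ends, rose by 0.33.

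In the amino acid response list 6 of 12 genes rose and 3 fell, against 30.8% higher and 30.8% lower over all tested genes, with a median log2 fold change of 0.34. TRIB3 and SESN2 rose by 1.44 and 0.99, and ATF4 itself, named outside the rule, by 0.42. ASNS, which makes asparagine, averaged 309 ± 21.8 CPM in knockdown and 554 ± 47.7 CPM in scrambled libraries (log2 fold change −0.84).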

How the data were processed

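Libraries were made from total RNA with a stranded mRNA kit, per the labels' protocols. The authors deposited whole-number read counts for each symbol, not normalised. HTSeq, SAMtools, TopHat2, CASAVA 1.8.2 and hg19 are named in the submitters' processing notes. Gene models and the strandedness option used: not given in the sources used here. The series table equalled all 6 single-sample files, and 5 summary entries stayed out of library sizes, the no-feature entry being 15.0% to 18.6% of reads in genes, in no feature or ambiguous. GENCODE 29 names pseudogenes for 11 members, whose counts are less certain. They are AARS, CARS, FARSB, GARS, KARS, NARS, RARS, WARS, IARS2, TARS2 and WARS2.

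The test was edgeR 4.0.16 under R 4.3.3 (filterByExpr, TMM, robust glmQLFit, glmQLFTest, 2-sided, group as the single term), with Benjamini-Hochberg adjustment over 14504 genes and a threshold of 0.05. TMM factors scale the printed CPM, and intervals are 95%. The labels do not say whether replicates were separate cultures, so p-values measure only how these libraries vary, and that variation may be technical. RPKM used the GENCODE 29 transcript with the longest coding region. All members are named, with every library's value for those called and changed by 1.5-fold or more and for their partners; of neighbouring lists, up to 3 called genes with the smallest adjusted p and all scaffold genes are named. The members and lists were chosen with earlier results of these data known. The summed level of the leukocyte marker list is not reported here. Alternatives were RLE scaling, no low-count filter, DESeq2 1.42.0, glmTreat against 1.5-fold, a replicate block and each library left out.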

Additional observations from a re-analysis of the deposited data

How the results depend on the processing

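The direction of every synthetase gene's called change and of ALKBH5 was kept under all alternatives that were run. With glmTreat, which tests for more than a 1.5-fold change, 6 synthetases were lower and 0 higher, of which 5 mitochondrial and 1 cytosolic were lower; 11.8% of all genes were lower and 13.0% higher in that test. With each library left out in turn, the 36 genes had 16 to 20 lower and 3 to 7 higher calls, cytosolic genes 7 to 10 lower and 3 to 5 higher, and mitochondrial genes 9 to 11 lower and 0 to 2 higher. The median log2 fold change then ranged from −0.31 (without scrambled replicate 1) to −0.14 (without knockdown replicate 1) for cytosolic genes, and from −0.39 to −0.34 for mitochondrial genes. The cause of these shifts was not tested. RLE scaling moved the median of all genes by less than 0.01 on the log2 scale.

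Replicate numbers were not taken to pair the libraries: the deviations of same-numbered libraries correlated at 0.33, 0.06 and 0.35, and scrambled replicate 2 correlated best with knockdown replicate 1. A replicate block gave 22 lower and 7 higher synthetases, of which 2 higher genes were mitochondrial. The calls it added were EPRS (adjusted p = 0.011), FARSA (0.0072) and VARS (0.016), all lower and cytosolic. It also added IARS2 (0.022) and MARS2 (0.020), both higher and mitochondrial. FARS2 held the fewest reads, from 104 in a library, with an SE of 0.14 on the log2 scale. The SE was larger for CARS2 (0.23, with 184 to 349 reads a library) and MARS2 (0.19, with 199 to 290 reads), so small changes of these genes were not detectable here.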

Other observations

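Some synthetase genes start back to back with another gene. In GENCODE 29, 10 members had a tested protein-coding gene that starts within 1000 bases on the other strand; these neighbours were taken from the annotation, after the members' values were known. HARS and HARS2 are such neighbours of each other, and both fell. Of the other 8 neighbours, 2 fell beside a member that fell, 1 rose beside a member that rose and 4 were not called. Over all tested genes 30.8% fell and 30.8% rose, so these counts are only a description of the neighbours. UBFD1, next to EARS2, averaged 70.6 CPM in knockdown and 103 CPM in scrambled libraries, and LYRM4, next to FARS2, averaged 25.5 CPM in knockdown and 38.0 CPM in scrambled libraries. TERF2IP, next to KARS, rose as KARS did, with 63.2 CPM in knockdown and 49.5 CPM in scrambled libraries. The annotation also has KARS overlapping TERF2IP, EARS2 overlapping UBFD1, WARS overlapping WDR25, CARS2 overlapping ING1 and SARS2 overlapping MRPS12, on opposite strands. Without a stated strand setting, reads at these overlaps cannot be separated, and their part in the values was not tested. MRPS12, a mitochondrial ribosomal protein gene next to SARS2, was not called, with 40.1 CPM in knockdown and 44.7 CPM in scrambled libraries (log2 fold change −0.16, adjusted p = 0.31), while SARS2 fell by 1.54 on the log2 scale. The neighbours of AARS, WARS and CARS2 were not called either, and ORC3 fell beside RARS2, which was not called.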
